A study of Mus musculus with 15 samples.

Results

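What remained different from healthy joints after treatment was asked of 10 of the 15 libraries of the series: all 5 from arthritic mice given F20 (CIA+F20) and all 5 from healthy mice, taken by the titles of the count columns. Every mouse was a wild-type DBA/1 male, 8 weeks old when the groups were set up. The CIA+F20 mice had been immunized and boosted with bovine collagen of type II in Freund's adjuvant, had passed an arthritis index of 5, and then received F20, a compound known here only by its code name, by mouth at 10 mg/kg daily for 21 days. The 5 CIA libraries came from mice immunized in the same way, past the same index, that did not receive F20 (a vehicle is not stated), and serve here only for levels set beside the others. The healthy mice were neither immunized nor treated. No group of healthy mice given F20 or adjuvant alone is among the samples, so immunization, remaining arthritis and the compound cannot be told apart in this contrast. Polyadenylated RNA came from the forelimb joint with its capsule, synovium and surrounding soft tissue, after the skin and most of the muscle had been cut away.

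Collagen-induced arthritis is an autoimmune disease in which antibodies and T cells against cartilage collagen bring granulocytes and monocytes into the synovium, the lining of the joint. Synovial fibroblasts and macrophages then release cytokines and matrix-degrading enzymes, and osteoclasts, the cells that resorb bone, erode the joint margin. Type I and type II interferons, cytokines of antiviral defence, switch on a common set of genes through dedicated transcription factors such as Irf9, among them antiviral effectors and the machinery that displays peptides on MHC molecules.

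Levels are CPM, read counts as deposited divided by library size, scaled by TMM over all 15 libraries, and are given as the mean ± SD of 5 libraries where no single values are shown. The CIA+F20 libraries held 26482475 to 31936703 counted reads, the CIA libraries 19487687 to 26670636 and the healthy libraries 18627303 to 34247317. Whether every library came from its own mouse is not stated, and p-values measure the spread between libraries. The joint label fitted the genes found: Prg4, the lubricin of the synovial and cartilage surface, lay at 40.9 to 588 CPM in CIA+F20 and 17.7 to 568 CPM in healthy libraries. Genes of fast muscle fibres still took 10.4% to 12% of counts in CIA+F20, 6.61% to 13.3% in CIA and 10.8% to 12.5% in healthy libraries.

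A pair of healthy libraries stood apart. On the first principal component, which held 38.3% of the variance, the CIA+F20 libraries lay between 1.5 (CIA+F20 4) and 44.3 and healthy 1, 2, 4 and 5 between -42.5 and -26.2, but the library labelled healthy 3 lay at 12.1, among the CIA+F20 libraries. Across genes, its log2 CPM correlated at 0.98 to 0.989 with the CIA+F20 libraries and at 0.962 to 0.983 with the other healthy ones, where genes are not independent replicates. Healthy 4 lay alone on the second component (22.6%), at -62.5. It carried T cell transcripts, with Cd8a at 19.4 CPM against at most 0.105 CPM in the other healthy libraries and at most 0.602 CPM in CIA+F20, and low transcripts of tendon, cartilage and collagen, such as Prg4 at 17.7 CPM. EdgeR values without healthy 3 are given beside many results, and values without healthy 4 only for some list medians.

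**Figure D1:**
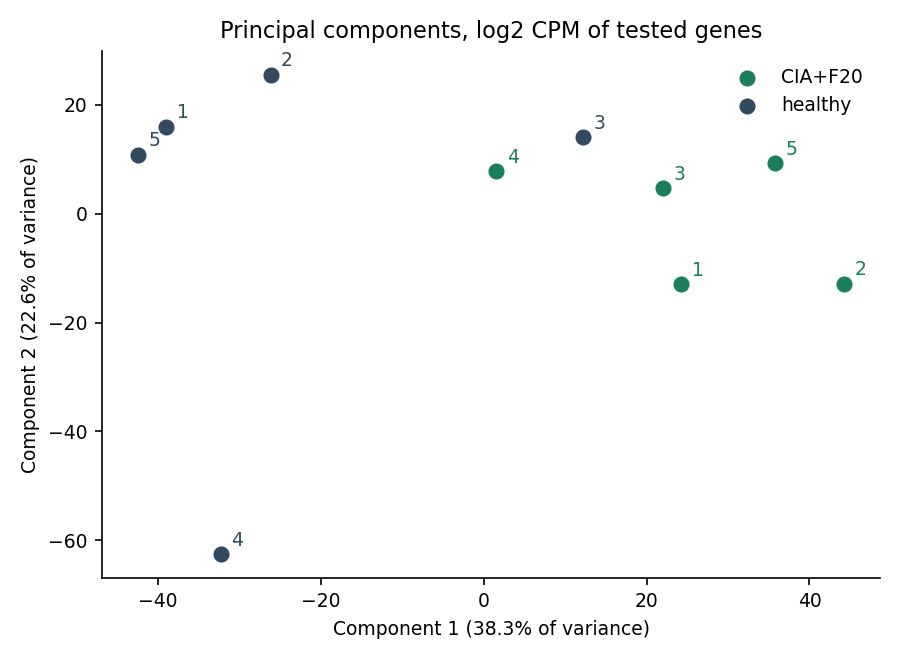
The first 2 principal components of the log2 CPM of all tested genes in the 5 CIA+F20 libraries (green) and the 5 healthy libraries (dark blue), numbered by replicate. Healthy 3 sits with the CIA+F20 libraries on component 1, and healthy 4 lies alone at the bottom of component 2.

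No gene passed the test between all 5 CIA+F20 and all 5 healthy libraries. Of 15280 genes tested with edgeR's quasi-likelihood test, 0 were called higher and 0 lower (0% each), a call being a Benjamini-Hochberg adjusted p under 0.05, and the lowest adjusted p was 0.131. At an unadjusted p under 0.05 stood 2580 genes, 1445 higher and 1135 lower in CIA+F20, a split that moved to 1731 higher and 757 lower with upper-quartile scaling. DESeq2, on the same counts, called 448 genes higher (3.06% of the 14655 with an adjusted p) and 183 lower (1.25%), of which 275 and 7 differed at least 2-fold. The median log2 fold change of all tested genes was -0.01, with 7244 positive and 8036 negative.

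A simple count fits no model, but it rests on the TMM-scaled levels and was chosen after the data were seen. In 289 genes (1.89% of those tested) every CIA+F20 library lay above every healthy library, and in 200 (1.31%) every one lay below. Without healthy 3, edgeR called 398 genes higher (2.58% of 15420) and 30 lower (0.195%), and the genes whose groups do not overlap numbered 797 higher (5.22%) and 354 lower (2.32%). Of those 797, healthy 3 itself reached the CIA+F20 range in 508. Healthy 3 was singled out because it lay near the CIA+F20 libraries, so leaving it out widens the contrast by choice, and these calls are read only beside the values of all 5 healthy libraries. Of the 448 genes that DESeq2 called higher, 267 were also among the 398, and 28 genes were called lower by both. Leaving out healthy 5 or CIA+F20 4 gave 2 edgeR calls each, and each of the other 7 libraries gave 0.

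Single libraries were also set against the healthy range. With 0.5 CPM added to each level, 79, 131, 34, 22 and 100 genes lay at least 2-fold above the highest of the 5 healthy libraries in CIA+F20 1 to 5, and 32, 50, 56, 0 and 1 lay at least 2-fold below the lowest. The CIA libraries had 246 to 1681 such genes above and 174 to 1181 below. Each healthy library was set against the other 4, a narrower range: healthy 3 had 168 genes above and healthy 4 had 131 above and 268 below, while healthy 1, 2 and 5 had 7 to 20 above and 3 to 13 below. CIA+F20 4 had the fewest genes outside the healthy range of the 5 treated libraries.

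Interferon-response genes were above healthy as a list. All 24 of its members had a positive log2 fold change, with a median of 1.03 against -0.01 for all tested genes, and in 12 of 24 every CIA+F20 library lay above every healthy one, where 1.89% of all genes did. DESeq2 called 18 of the 24 higher, against 3.06% of all genes. EdgeR called 0 with all libraries and 6 without healthy 3 (Mx1, Oas1a, Oas3, Oasl2, Irf9 and Rsad2), against 2.58% of all genes. The median was 1.06 without healthy 3 and 1.07 without healthy 4. The CIA+F20 and CIA contrasts with healthy share the healthy libraries; the list's median in CIA over healthy was 1.29.

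Oasl2, an antiviral protein of the oligoadenylate synthetase family (ENSMUSG00000029561, chr5:115034997-115050295 in GRCm39), stood at 18.4, 31.5, 14.2, 9.83 and 17.4 CPM in CIA+F20 1 to 5, at 33.4, 29.5, 16, 30.6 and 31 CPM in CIA, and at 4.34, 4.43, 5.5, 6.86 and 2.98 CPM in healthy 1 to 5. The groups did not overlap, and healthy 3 read as the other healthy libraries did. Its log2 fold change was 1.91 ± 0.31 (SE), with an edgeR adjusted p of 0.131 with all libraries and 0.0186 without healthy 3, and a DESeq2 adjusted p of 2.26e-06. Xaf1, an interferon-induced apoptosis factor outside the list, stood at 31.9, 40.1, 26.4, 24.1 and 30.2 CPM in CIA+F20, 26.4 to 48.2 CPM in CIA and 18.3, 16.2, 17.1, 18.7 and 13.6 CPM in healthy. Its 1.8-fold difference from healthy (log2 0.85 ± 0.13, edgeR adjusted p 0.131, 0.0197 without healthy 3, DESeq2 2.56e-05) was near the CIA one (log2 0.99 ± 0.18).

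Irf9 and Stat2, which act together in the type I interferon signal, lay above every healthy library in all 5 treated libraries. Irf9 stood at 26.7, 25.9, 19.2, 18.6 and 23.9 CPM in CIA+F20 and at 13.4, 14.1, 15.1, 15.2 and 11.4 CPM in healthy (log2 0.71 ± 0.12, edgeR adjusted p 0.146, 0.0202 without healthy 3, DESeq2 0.000131). Stat2 had 18.7 to 27.7 CPM in CIA+F20 and 9.5 to 15.2 CPM in healthy. Irf7, the factor that amplifies interferon production, had 9.32 to 24.1 CPM in CIA+F20 and 2.55 to 8.48 CPM in healthy. DESeq2 called Irf9, Stat2 and Irf7 higher, and edgeR with all libraries called none of them, at an adjusted p of 0.146 each.

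Among the antiviral effectors the fold was larger and the levels lower. Mx1, which traps viral nucleoproteins, had 1.33, 2.78, 1.03, 0.92 and 1.6 CPM in CIA+F20 and 0.205, 0.374, 0.453, 0.232 and 0.199 CPM in healthy (log2 2.33 ± 0.38, edgeR adjusted p 0.131, 0.0131 without healthy 3, DESeq2 0.000131). Oas3, which makes the messenger that activates RNase L, had 4.99, 15, 2.19, 1.52 and 8.04 CPM in CIA+F20 and 0.287, 0.17, 1.43, 0.581 and 0.199 CPM in healthy, so that CIA+F20 4 and healthy 3 nearly met (edgeR adjusted p 0.146, 0.0202 without healthy 3). In Oasl2, Xaf1, Mx1, Oas3 and Irf7 the highest treated library was CIA+F20 2 and the lowest CIA+F20 4. Isg15, a ubiquitin-like modifier, overlapped between groups through healthy 4, with 3.18 to 10 CPM in CIA+F20 and 0.96 to 4.12 CPM in healthy.

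**Figure D2:**
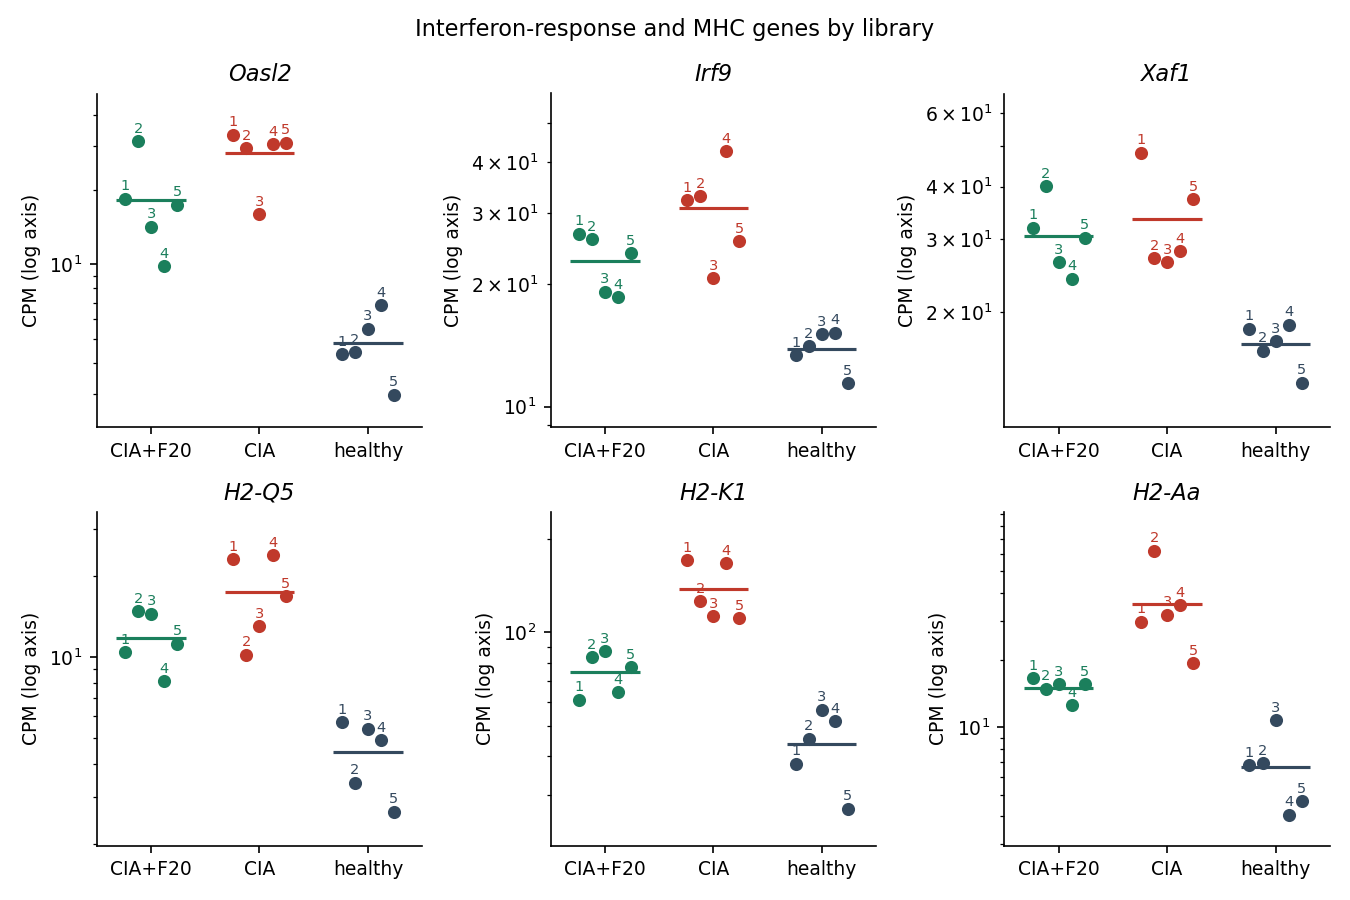
Level in CPM (log axis) of interferon-response and MHC genes in every library of the CIA+F20 (green), CIA (red) and healthy (dark blue) groups, with replicate numbers and the group mean as a line. In all 6 genes every CIA+F20 library lies above every healthy library, healthy 3 included.

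The stretch of 250 bases before the start of transcription is shown for 4 interferon-response genes. In these the groups did not overlap and a short sequence was found there. Oas1a had 2.69 to 6.75 CPM in CIA+F20 and 0.463 to 2.15 CPM in healthy (edgeR adjusted p 0.146, DESeq2 0.00183). Ifit3 had 15.3 to 33.4 CPM in CIA+F20 and 11.4 to 14.8 CPM in healthy, and neither tool called it (edgeR adjusted p 0.175, DESeq2 0.0604). The motif searched was GAAANNGAA on both strands, the core that interferon-activated factors of the Irf family bind; it was chosen with the values known. The bases are from RefSeq (GRCm38.p6), read on the strand of the gene, each found at a single place in GRCm39 by exact match, and capitals mark the motif, which overlaps itself in Oas3 and Oas1a.
Stat2 (chr10:128106117-128106366, plus strand): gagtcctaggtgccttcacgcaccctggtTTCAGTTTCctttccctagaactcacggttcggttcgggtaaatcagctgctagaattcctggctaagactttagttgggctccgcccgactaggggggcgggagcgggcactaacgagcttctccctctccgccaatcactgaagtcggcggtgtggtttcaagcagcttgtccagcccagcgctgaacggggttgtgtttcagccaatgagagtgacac
Oas3 (chr5:120915725-120915974, minus strand): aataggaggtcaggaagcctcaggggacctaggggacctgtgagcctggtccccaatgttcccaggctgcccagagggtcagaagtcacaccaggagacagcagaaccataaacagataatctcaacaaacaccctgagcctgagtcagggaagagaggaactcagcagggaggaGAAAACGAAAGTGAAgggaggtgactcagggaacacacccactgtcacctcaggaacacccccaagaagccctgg
Oas1a (chr5:121045589-121045838, minus strand): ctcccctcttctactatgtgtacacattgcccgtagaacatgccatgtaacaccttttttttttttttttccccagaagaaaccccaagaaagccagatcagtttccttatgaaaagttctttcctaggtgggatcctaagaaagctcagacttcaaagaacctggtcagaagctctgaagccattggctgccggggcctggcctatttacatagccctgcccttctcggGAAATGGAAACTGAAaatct
Ifit3 (chr19:34560679-34560928, plus strand): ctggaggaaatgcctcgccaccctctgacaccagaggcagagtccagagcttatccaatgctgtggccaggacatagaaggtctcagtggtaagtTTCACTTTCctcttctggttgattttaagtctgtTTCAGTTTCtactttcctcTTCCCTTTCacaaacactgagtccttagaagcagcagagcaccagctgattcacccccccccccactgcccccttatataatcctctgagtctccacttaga
Of the 18 list members with a promoter in the table, 12 (66.7%) held a match, against 871 of 11534 tested genes (7.55%). Of the 9 members with a promoter whose groups do not overlap, 4 (44.4%) held a match and these are the 4 shown. That share is below the one of the list, so the motif was not particular to members without overlap.

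Genes that display peptides on MHC class I were not a list of their own, and those given here were chosen after their values were seen. H2-K1, a classical class I heavy chain, stood at 60.8, 83.2, 87, 64.3 and 77.3 CPM in CIA+F20, 111 to 171 CPM in CIA and 37.9, 45.6, 56.5, 51.8 and 27.2 CPM in healthy libraries (log2 0.75 ± 0.18, edgeR adjusted p 0.146, 0.0383 without healthy 3, DESeq2 0.00636). B2m, the light chain they share, averaged 219 ± 23.7 CPM in CIA+F20, 313 ± 62.7 CPM in CIA and 158 ± 29.4 CPM in healthy, again without overlap between CIA+F20 and healthy. H2-D1, H2-Q4, H2-Q5, H2-Q7, H2-T23, the peptide transporter Tap1 and Nlrc5, the transactivator of class I genes, did not overlap either. Their log2 fold changes ran from 0.54 ± 0.13 (H2-D1) to 1.65 ± 0.27 (H2-Q7). DESeq2 called each of these genes, H2-K1 and B2m higher, and edgeR without healthy 3 gave adjusted p of 0.0158 (H2-Q5) to 0.109 (B2m). Psmb8 and Psmb9, subunits of the immunoproteasome that cuts peptides for class I, overlapped through healthy 4. Psmb8 had 7.55 to 12.4 CPM in CIA+F20 and 3.77 to 10.2 CPM in healthy (DESeq2 0.0826). Psmb9 had 6.15 to 10.5 CPM in CIA+F20 and 2.65 to 7.79 CPM in healthy (DESeq2 0.0429, 0.0538 without healthy 3). Heavy chains of the class I family are near-identical in stretches and could exchange reads in counting, so their single values are uncertain.

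MHC class II genes, which mark dendritic cells, B cells and activated macrophages, were also above healthy. Of the 12 tested members of the dendritic and antigen presentation list all were positive, with a median log2 fold change of 0.98; 5 did not overlap between groups, DESeq2 called 6 and edgeR without healthy 3 called 6, where the shares of all genes were 1.89%, 3.06% and 2.58%. H2-Aa, a class II chain, stood at 16.6, 14.9, 15.6, 12.6 and 15.6 CPM in CIA+F20, 19.4 to 61.8 CPM in CIA and 6.8, 6.91, 10.8, 4.07 and 4.67 CPM in healthy. The treated libraries lay close together, and healthy 3 was the highest healthy one (log2 1.15 ± 0.22, edgeR adjusted p 0.146, 0.00451 without healthy 3, DESeq2 0.00026). Cd74, the invariant chain, had 58.9 to 70.2 CPM in CIA+F20 and 17 to 45.7 CPM in healthy (edgeR adjusted p 0.146, 0.00451 without healthy 3). In whole tissue, more cells of a type and more RNA per cell cannot be told apart.

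Single monocyte and macrophage genes also lay above healthy. The macrophage list had 17 of 18 members positive and a median log2 fold change of 0.79, with 2 members not overlapping and 6 called higher by DESeq2 (1.89% and 3.06% of all genes); the median in CIA over healthy, which uses the same healthy libraries, was 2.46. Ccl8, a chemokine that draws monocytes (ENSMUSG00000009185, chr11:82006011-82007625), had the lowest adjusted p of all genes in DESeq2, 1.2e-06. It stood at 5.22, 1.84, 3.68, 5.01 and 2.97 CPM in CIA+F20, 4.57 to 23.6 CPM in CIA and 0.779, 0.647, 1.25, 0.639 and 0.695 CPM in healthy (log2 2.19 ± 0.31, edgeR adjusted p 0.131, 0.00498 without healthy 3). Every treated library was above healthy 3, the highest healthy one.

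Ccr2, the receptor that brings monocytes out of marrow, stood at 27.2, 15.8, 15.3, 19.3 and 22.8 CPM in CIA+F20 and at 5.08, 4.83, 12.2, 2.03 and 3.81 CPM in healthy. Mpeg1, a pore-forming protein of macrophages, had 16.4, 18.6, 12.1, 14.8 and 24.4 CPM in CIA+F20, 31.9 to 77.5 CPM in CIA and 2.75, 3.37, 9.44, 4.82 and 2.81 CPM in healthy. In both, healthy 3 was the highest healthy library and still below every treated one, and DESeq2 called both higher (0.000536 and 5.43e-05), as did edgeR without healthy 3 (0.00451 each). Adam8, a membrane protease of leukocytes, Cybb, the catalytic chain of the phagocyte oxidase, Spi1, the factor that sets myeloid fate, and Fcgr1, the high-affinity IgG receptor, gave the same picture, with log2 fold changes of 1.42 ± 0.22, 2.02 ± 0.47, 1.72 ± 0.4 and 1.89 ± 0.41 and no overlap. Their edgeR adjusted p was 0.131 (Adam8) or 0.146 with all libraries and 0.00451 to 0.0226 without healthy 3. In Cybb and Spi1 the lowest treated library (21.7 and 6.79 CPM) nearly met healthy 3 (21 and 6.65 CPM). Ccr2, Mpeg1, Adam8, Cybb and Spi1 are outside the macrophage list and were chosen after their values were seen. Adgre1 and Cd68, on that list, overlapped. Adgre1 had 2.62 to 7.42 CPM in CIA+F20 and 1.51 to 3.81 CPM in healthy, and Cd68 5.48 to 8.11 and 3.14 to 5.89 CPM (edgeR adjusted p 0.212 and 0.168).

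Of the genes of resident lining macrophages, 5 of 10 were positive, with a median log2 fold change of 0.14. Timd4, a receptor for dying cells on resident macrophages, had 0.9 to 1.81 CPM in CIA+F20 and 0.407 to 1.46 CPM in healthy, and Vsig4, a complement receptor of the lining, had 0.491 to 2.76 CPM in CIA+F20 and 0.349 to 4.73 CPM in healthy. Only Siglec1 of that list, itself an interferon-induced sialic acid receptor, did not overlap, with 2.37 to 6.41 CPM in CIA+F20 and 0.29 to 2.33 CPM in healthy.

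Of 8 inflammatory cytokine genes tested, 6 had a positive log2 fold change (median 0.68). DESeq2 called 1 higher (3.06% of all genes), edgeR called 0, and 1 did not overlap (1.89% of all genes). Il1b, the pro-inflammatory interleukin, stood at 3.08, 2.17, 1.41, 3.61 and 2.39 CPM in CIA+F20, 1.43, 17.2, 3.8, 23.3 and 1.24 CPM in CIA, and 0.164, 0.34, 1.39, 0.29 and 0.629 CPM in healthy libraries. CIA+F20 3 and healthy 3 nearly met (log2 2.11 ± 0.48, edgeR adjusted p 0.146, 0.00799 without healthy 3, DESeq2 0.00399). Il1rn, its natural antagonist, was the most even, with 1.68, 1.72, 1.87, 1.84 and 1.84 CPM in CIA+F20, 4.15 to 12.9 CPM in CIA and 0.246, 0.102, 0.871, 0.581 and 0.331 CPM in healthy (log2 2.06 ± 0.4, edgeR adjusted p 0.146, 0.00601 without healthy 3, DESeq2 0.000348). Tnf overlapped, with 0.317 to 1.09 CPM in CIA+F20 and 0.0331 to 0.755 CPM in healthy (edgeR adjusted p 0.537). Il6, under the filter on low counts and so not tested, had 3.16 CPM in CIA+F20 1 and 0.205 to 0.444 CPM in the other treated libraries, against 0.0681 to 0.232 CPM in healthy.

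An acute phase gene and a chemokine gene, Saa3 and Cxcl5, were close to 0 in healthy joints and detected in every treated one. Saa3, an acute phase protein made by macrophages and fibroblasts, had 9.71, 0.409, 0.566, 4.22 and 0.409 CPM in CIA+F20, 0.957 to 127 CPM in CIA and 0 to 0.139 CPM in healthy libraries. Cxcl5, a chemokine for neutrophils, had 4.95, 0.409, 0.813, 2.35 and 0.477 CPM in CIA+F20, 0.425 to 55.4 CPM in CIA and 0.0331 to 0.174 CPM in healthy. CIA+F20 1 and 4 held most of either, and no fold is given against healthy levels this close to 0; the DESeq2 adjusted p was 7.54e-05 and 0.000148, and edgeR's was 0.146 for each, and 0.0591 and 0.041 without healthy 3. Their lists as a whole were not silent. The STAT3 and acute phase list took 0.0316% to 0.0602% of counts in CIA+F20 and 0.021% to 0.0332% in healthy libraries. Of that list's 16 tested members 1 did not overlap (1.89% of all genes). Of 14 chemokines tested 13 were positive (median log2 fold change 1.27), DESeq2 called 5 (3.06% of all genes), and 2 (Ccl8 and Cxcl5) did not overlap (1.89% of all genes). The inflammasome list holds genes around the complex that matures interleukin-1 and also the antagonist Il1rn, given above. It had 12 of 13 positive (median 0.75), and 5, against 1.89% of all genes, did not overlap: Nlrp3, Casp4, Gsdmd, Aim2 and Il1rn.

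The 2 granulocyte lists had the largest medians of the 55 lists, and here leaving out healthy 3 changed the call. The mature neutrophil list had 14 of 14 members positive with a median log2 fold change of 2.13, yet only 2 (Clec4e and Trem1) did not overlap. For marrow granulocyte precursors these were 11 of 11, a median of 2.2 and 0 without overlap. EdgeR called 0 of either list with all libraries, and 14 of 14 and 11 of 11 without healthy 3, when the medians were 3.29 and 3.61. DESeq2 with all libraries called 9 and 3. Of all genes, 1.89% lay higher without overlap, and 2.58% (edgeR without healthy 3) and 3.06% (DESeq2) were called higher. Healthy 3 was itself far above the other healthy libraries in the mature neutrophil list, so leaving it out widens these contrasts by choice. S100a8, an alarmin of neutrophils, stood at 79.5, 149, 81.5, 47.9 and 149 CPM in CIA+F20, 289, 208, 59.2, 674 and 157 CPM in CIA, and 8.61, 12.2, 86.9, 12 and 10.5 CPM in healthy 1 to 5. Healthy 3 exceeded 3 of the 5 treated libraries (log2 1.95 ± 0.67, edgeR adjusted p 0.196; 3.21 ± 0.35, 0.00451, without it).

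Mpo, the peroxidase that granulocyte precursors make in marrow, repeated the order with 58.2, 101, 56.6, 30.1 and 117 CPM in CIA+F20 and 6.15, 8.54, 51.8, 2.21 and 4.53 CPM in healthy. Ly6g, the surface marker of mouse neutrophils, had 3.39, 6.18, 2.65, 1.84 and 6.58 CPM in CIA+F20 and 0.287, 0.238, 2.37, 0.0581 and 0.397 CPM in healthy. CIA+F20 2 and 5 were highest and CIA+F20 4 lowest in all 3 genes, and healthy 3 read like a treated library. EdgeR's adjusted p was 0.187 for Mpo and 0.16 for Ly6g with all libraries, and 0.00473 and 0.0052 without healthy 3.

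Genes of other lineages of bone marrow and blood gave similar patterns. The erythroid list, a sign of blood or marrow in the sample, took 0.0483% to 0.135% of counts in CIA+F20, 0.0257% to 0.338% in CIA and 0.00677% to 0.0914% in healthy libraries, where healthy 3 was the highest; all 10 tested members were positive with a median log2 fold change of 1.36. Alas2, the haem enzyme of red cell precursors, stood at 14.7, 37.4, 13, 12.9 and 32.1 CPM in CIA+F20 and at 3.36, 6.37, 22.8, 2.73 and 6.06 CPM in healthy. Cd79b, a chain of the B cell receptor, had 3.92, 5.81, 3.04, 2.85 and 6.71 CPM in CIA+F20 and 0.861, 1.06, 3.34, 0.93 and 0.794 CPM in healthy. EdgeR called 0 erythroid and 0 B cell genes with all libraries. Without healthy 3 it called 6 of 10 and 6 of 11, against 2.58% of all genes. DESeq2 with all libraries called 0 of the 10 and 4 of the 11 higher, against 3.06% of all genes.

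For platelets 1 gene is given and for cell division a list. Ppbp, a chemokine stored in platelets (named after its values were seen), had 42.2, 53.7, 47, 19.8 and 77.7 CPM in CIA+F20 and 4.1, 5.51, 28.1, 17 and 4.3 CPM in healthy, where CIA+F20 4 lay below healthy 3 (edgeR adjusted p 0.16, 0.0265 without healthy 3). All 16 cell cycle genes had a positive log2 fold change, with a median of 0.91, but 0 lacked overlap, and edgeR with or without healthy 3 and DESeq2 called 0; 2 had an unadjusted p under 0.05. With the erythroid score as a covariate the log2 fold change of S100a8 was 1.08 instead of 1.95 and those of the monocyte genes Cybb and Spi1 1.19 and 0.93 instead of 2.02 and 1.72. Among interferon genes, Oas3 had 2.28 instead of 3.55, Mx1 1.6 instead of 2.33, Oasl2 1.73 instead of 1.91 and Irf9 0.63 instead of 0.71. That fit called 0 genes and had 1221 at an unadjusted p under 0.05. The erythroid list itself took more of the counts in CIA+F20 (median 0.0622%) than in healthy libraries (median 0.0185%). That fit therefore cannot separate marrow or blood content from the group, and the part of such content in these differences was not tested.

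**Figure D3:**
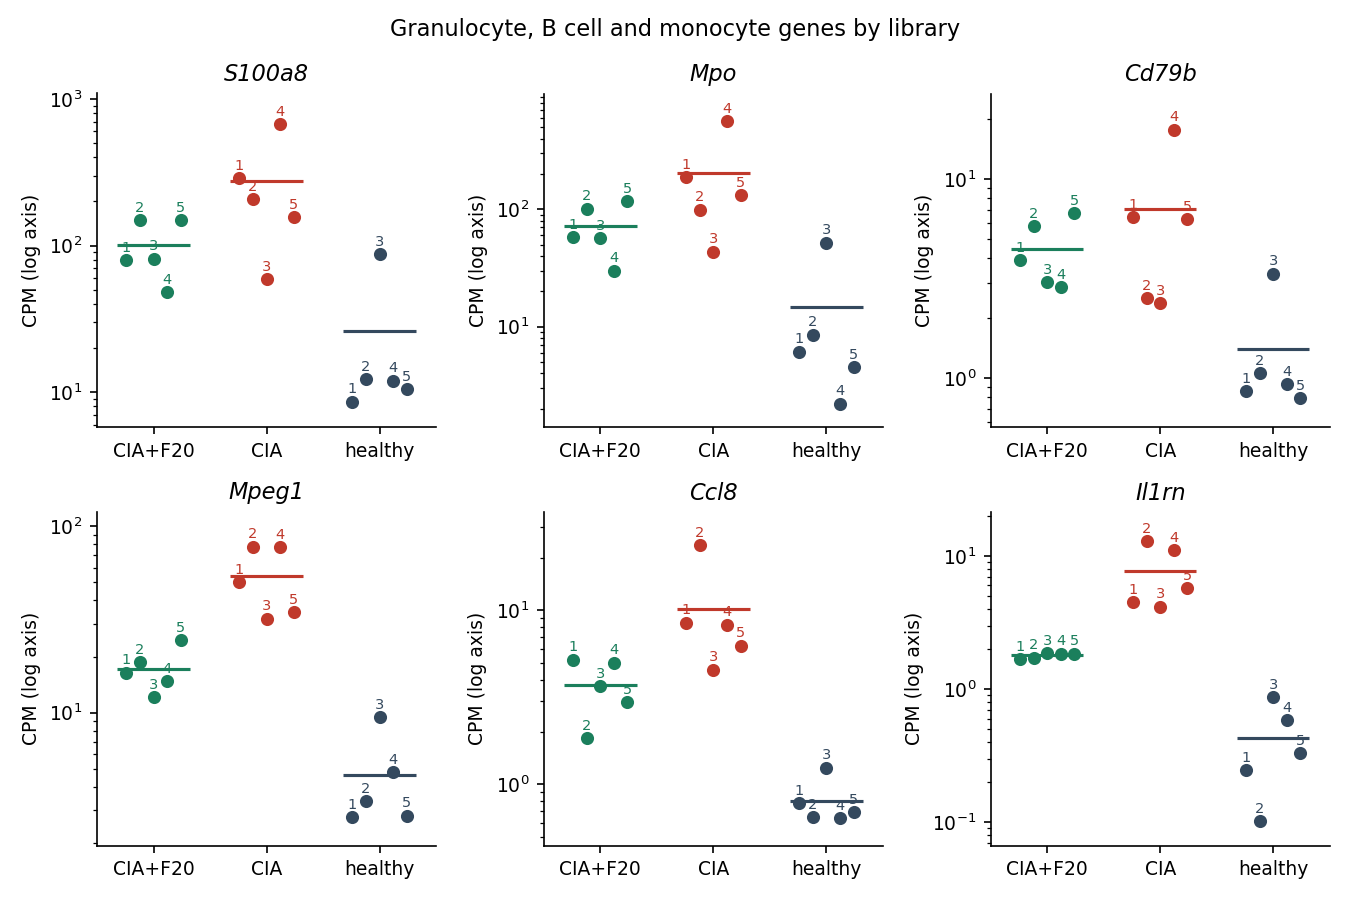
Level in CPM (log axis) of granulocyte (S100a8, Mpo), B cell (Cd79b) and monocyte or cytokine genes (Mpeg1, Ccl8, Il1rn) in every library of the CIA+F20 (green), CIA (red) and healthy (dark blue) groups, with replicate numbers and the group mean as a line. Healthy 3 lies among the CIA+F20 libraries in the upper row and below all of them in the lower row.

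Bone-resorption genes lay within the healthy range in some treated libraries and above it in others. Of 15 osteoclast genes 14 were positive with a median log2 fold change of 0.55, none without overlap; the median in CIA over healthy was 2.43. Acp5, the acid phosphatase that identifies osteoclasts, stood at 3.73, 31.6, 28.5, 12.8 and 12.1 CPM in CIA+F20, 137, 139, 185, 41.8 and 54.7 CPM in CIA, and 5.49, 6.91, 15.7, 6.27 and 9.73 CPM in healthy. CIA+F20 1 was below every healthy library and CIA+F20 2 and 3 above every one (log2 0.98 ± 0.5, edgeR adjusted p 0.337, DESeq2 0.326). Ctsk, the collagen-cleaving protease of osteoclasts, had 10.7 to 50.8 CPM in CIA+F20, 49.3 to 377 CPM in CIA and 6.27 to 21.5 CPM in healthy.

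DESeq2 called 2 of the 15 osteoclast genes higher, against 3.06% of all genes, and both are also made by other cells. Mmp9, a gelatinase of osteoclasts and neutrophils, stood at 16.8, 50.6, 30.2, 14.3 and 40.2 CPM in CIA+F20 and at 3.69, 3.4, 16.6, 3.31 and 7.02 CPM in healthy (log2 2.13 ± 0.52, edgeR adjusted p 0.146, 0.01 without healthy 3). Itgb3, the integrin chain of osteoclasts and platelets, had 12.2 to 37.3 CPM in CIA+F20 and 5.43 to 19.6 CPM in healthy, with healthy 3 the highest healthy library in both (edgeR adjusted p of Itgb3 0.16, 0.012 without healthy 3). Tnfsf11, the signal that makes osteoclasts (RANKL), had 0.533 to 1.16 CPM in CIA+F20 and 0.205 to 1.52 CPM in healthy, and its decoy receptor Tnfrsf11b had 2.63 to 17.8 CPM in CIA+F20 and 0.523 to 13.5 CPM in healthy. Neither passed a test (edgeR adjusted p 0.637 and 0.905).

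The stromal proteases parted. Mmp3, a stromelysin of synovial fibroblasts, stood at 10.7, 0.859, 12.2, 13.3 and 13.1 CPM in CIA+F20, 6.24 to 175 CPM in CIA and 2.75, 3.88, 2.51, 0.581 and 1.89 CPM in healthy. It was above every healthy library in 4 treated libraries and below 4 of the 5 in CIA+F20 2 (log2 2.07 ± 0.61, edgeR adjusted p 0.165, DESeq2 0.0183). Without healthy 3 the adjusted p of Mmp3 was 0.159 in edgeR and 0.0711 in DESeq2. Mmp13, the collagenase of cartilage and bone, had 15.4, 39.6, 83.4, 25.5 and 34.1 CPM in CIA+F20, 71 to 981 CPM in CIA and 20.1, 23.8, 31.4, 11.3 and 45.8 CPM in healthy, and the 2 groups overlapped widely (log2 0.55 ± 0.45, edgeR adjusted p 0.554).

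Genes of the joint's own structure had medians near 0. Collagens had a median log2 fold change of -0.05 (11 of 16 negative), matrix and fibrosis genes -0.07 (12 of 20), synovial fibroblast genes -0.10 (13 of 18), cartilage genes 0.01 (8 of 16) and tendon genes -0.07 (6 of 9). In CIA over healthy the same medians were 0.80, 0.79, 0.83, 0.60 and 0.69. EdgeR called 0 genes of any of these 5 lists, and DESeq2 called 1 higher, against 3.06% of all genes. This was Vcam1, a leukocyte adhesion molecule (11.1 to 19.9 CPM in CIA+F20, 5.96 to 12.3 CPM in healthy). Healthy 4 was low in these genes: without it the 5 medians were -0.23, -0.16, -0.21, -0.15 and -0.29.

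Levels within these lists spread widely inside each group. Col1a1, the main bone and tendon collagen, had 393, 516, 294, 431 and 349 CPM in CIA+F20, 240 to 1944 CPM in CIA and 275, 518, 295, 78.5 and 565 CPM in healthy (log2 0.18 ± 0.41, edgeR adjusted p 0.861). Acan, the core proteoglycan of cartilage, had 4.8 to 30 CPM in CIA+F20 and 0.639 to 25.8 CPM in healthy (log2 -0.03 ± 0.67). Errors of this size leave room for differences of more than 1.5-fold in either direction, so equal levels were not shown.

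**Figure D4:**
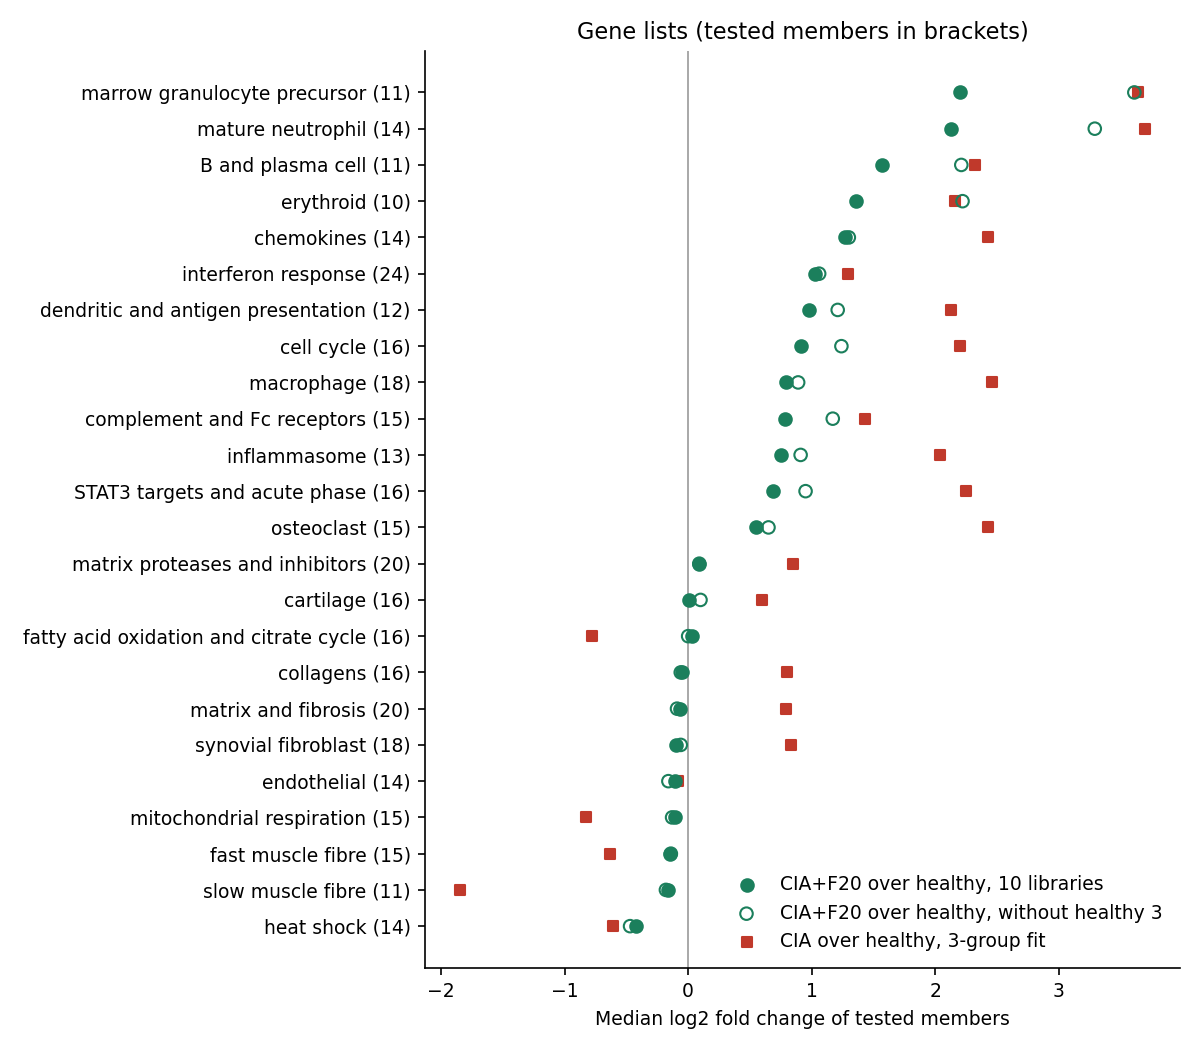
Median log2 fold change of the tested members of 24 gene lists (number of tested members in brackets), for CIA+F20 over healthy with all 10 libraries (filled green), the same without healthy 3 (open green) and CIA over healthy from a fit of all 15 libraries (red squares). Granulocyte, B cell and erythroid medians shift to the right without healthy 3, the interferon median is 1.03 with it and 1.06 without it, and structural lists sit near 0 in CIA+F20.

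DESeq2 called 3 genes of fast muscle fibres lower, by small amounts. Mylpf, the regulatory light chain of fast myosin (ENSMUSG00000030672, chr7:126808062-126813470), stood at 2705, 2831, 2781, 3112 and 2723 CPM in CIA+F20, 1048 to 3574 CPM in CIA and 4135, 3585, 3375, 3644 and 3528 CPM in healthy. Every treated library lay below every healthy one, by 0.38 ± 0.07 on the log2 scale as a mean (edgeR adjusted p 0.146, 0.0239 without healthy 3, DESeq2 7.54e-05). Klhl31, a muscle protein of the sarcomere, had 377 to 435 CPM in CIA+F20 and 435 to 530 CPM in healthy (edgeR adjusted p 0.146, 0.0418 without healthy 3, DESeq2 0.0013). Acta1, the actin of skeletal muscle, overlapped, with 22666 to 31980 CPM in CIA+F20 and 25397 to 29061 CPM in healthy (log2 -0.15 ± 0.11, edgeR adjusted p 0.513).

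Across the fast muscle list 13 of 15 members were negative with a median log2 fold change of -0.15. DESeq2 called 3 lower (Myl1, Mylpf and Tnni2), against 1.25% of all genes, and 1 did not overlap, against 1.31%. All 15 tested nuclear genes of mitochondrial respiration were negative, with a median of -0.11. DESeq2 called 1 (1.25% of all genes), edgeR 0 (4 at an unadjusted p under 0.05), and none lacked overlap. Other mitochondrial lists were mixed: fatty acid oxidation and citrate cycle genes had 9 of 16 positive (median 0.03), and genes of the mitochondrial genome had 5 of 13 positive (median -0.09), with 0 calls by either tool. Ndufs5, a subunit of complex I outside that list, had 74.6 to 88.3 CPM in CIA+F20 and 89 to 109 CPM in healthy without overlap (edgeR adjusted p 0.146, 0.0243 without healthy 3, DESeq2 0.00408). In CIA over healthy the medians of fast muscle and respiration were -0.63 and -0.83.

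Endothelial genes split. Of 14 list members 8 were negative, with a median log2 fold change of -0.11. Selp, the selectin that slows leukocytes on activated vessels and is also carried by platelets, stood at 7.62, 2.54, 3.39, 2.7 and 6.82 CPM in CIA+F20, 2.66 to 24.1 CPM in CIA and 0.533, 0.374, 1.15, 2.03 and 0.563 CPM in healthy (log2 2.34 ± 0.5, edgeR adjusted p 0.146, 0.0498 without healthy 3, DESeq2 0.000943). Sox7, an endothelial transcription factor outside the list, lay the other way without overlap, with 7.88, 9.29, 8.49, 9.26 and 10 CPM in CIA+F20, 6.56 to 9.1 CPM in CIA and 13.8, 12.3, 12.9, 21.5 and 14 CPM in healthy (log2 -0.74 ± 0.15, edgeR adjusted p 0.146, 0.0315 without healthy 3, DESeq2 0.00177). Tcf15 and Hspa12b, also endothelial genes named after their values were seen, were below healthy without overlap too, at log2 -0.49 ± 0.11 and -0.44 ± 0.09 (edgeR adjusted p 0.146 each, 0.0338 and 0.0418 without healthy 3).

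Clock genes differed among the treated libraries themselves. The core clock is a loop in which the activator Arntl drives repressors and output genes such as Dbp and Nr1d1 in a daily rhythm, so that Arntl and Dbp peak at opposite hours. Dbp stood at 49.2, 172, 97.4, 9.73 and 8.45 CPM in CIA+F20 1 to 5, at 144, 62.9, 164, 23.1 and 168 CPM in CIA, and at 9.14, 9.6, 10.2, 8.71 and 9 CPM in healthy. Libraries 1 to 3 of the treated group were above every healthy library and libraries 4 and 5 were at the healthy level (log2 2.82 ± 0.74, edgeR adjusted p 0.157, DESeq2 0.012). Arntl mirrored this, with 30.7, 7.41, 21.6, 56.3 and 59.1 CPM in CIA+F20, 2.61 to 9.14 CPM in CIA and 56.1 to 70.5 CPM in healthy.

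Nr1d1, a repressor of Arntl, had 184, 184, 227, 18.6 and 44.1 CPM in CIA+F20, 66.6 to 163 CPM in CIA and 35 to 44 CPM in healthy. Nfil3, which competes with Dbp for its sites, had 19.8, 9.9, 8.17, 79.2 and 80 CPM in CIA+F20, 5.81 to 18.2 CPM in CIA and 83.3 to 191 CPM in healthy. Genes outside the clock kept the split: Ppp1r3c, which targets a phosphatase to glycogen, had 269, 120, 127, 720 and 805 CPM in CIA+F20, 18.6 to 72.9 CPM in CIA and 686 to 823 CPM in healthy. Neither the hour of sacrifice nor the order of dissection is stated in the sources used here, so hour, treatment and disease cannot be told apart for these genes.

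Heat shock genes lay below healthy, with the lowest levels of those shown in CIA+F20 1 to 3. All 14 list members were negative with a median log2 fold change of -0.42. DESeq2 called 1 (1.25% of all genes) and edgeR 0, with 5 at an unadjusted p under 0.05. Hspa8, the constitutive chaperone, stood at 911, 815, 730, 1147 and 1066 CPM in CIA+F20, 675 to 1249 CPM in CIA and 1145, 1163, 1120, 1509 and 1335 CPM in healthy (DESeq2 0.0472). Hspa1b, its stress-induced relative, had 10.5, 8.02, 3.78, 85.1 and 33.8 CPM in CIA+F20 and 27.3 to 182 CPM in healthy, and it shares reads with a near-identical copy. The interferon genes did not follow this split: Oasl2 and Irf9 were above every healthy library in CIA+F20 4 and 5 as well. In a fit chosen after the split was seen, with the level of Dbp as a covariate the log2 fold change of Oasl2 was 1.48, and 0 genes were called (1313 at an unadjusted p under 0.05).

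**Figure D5:**
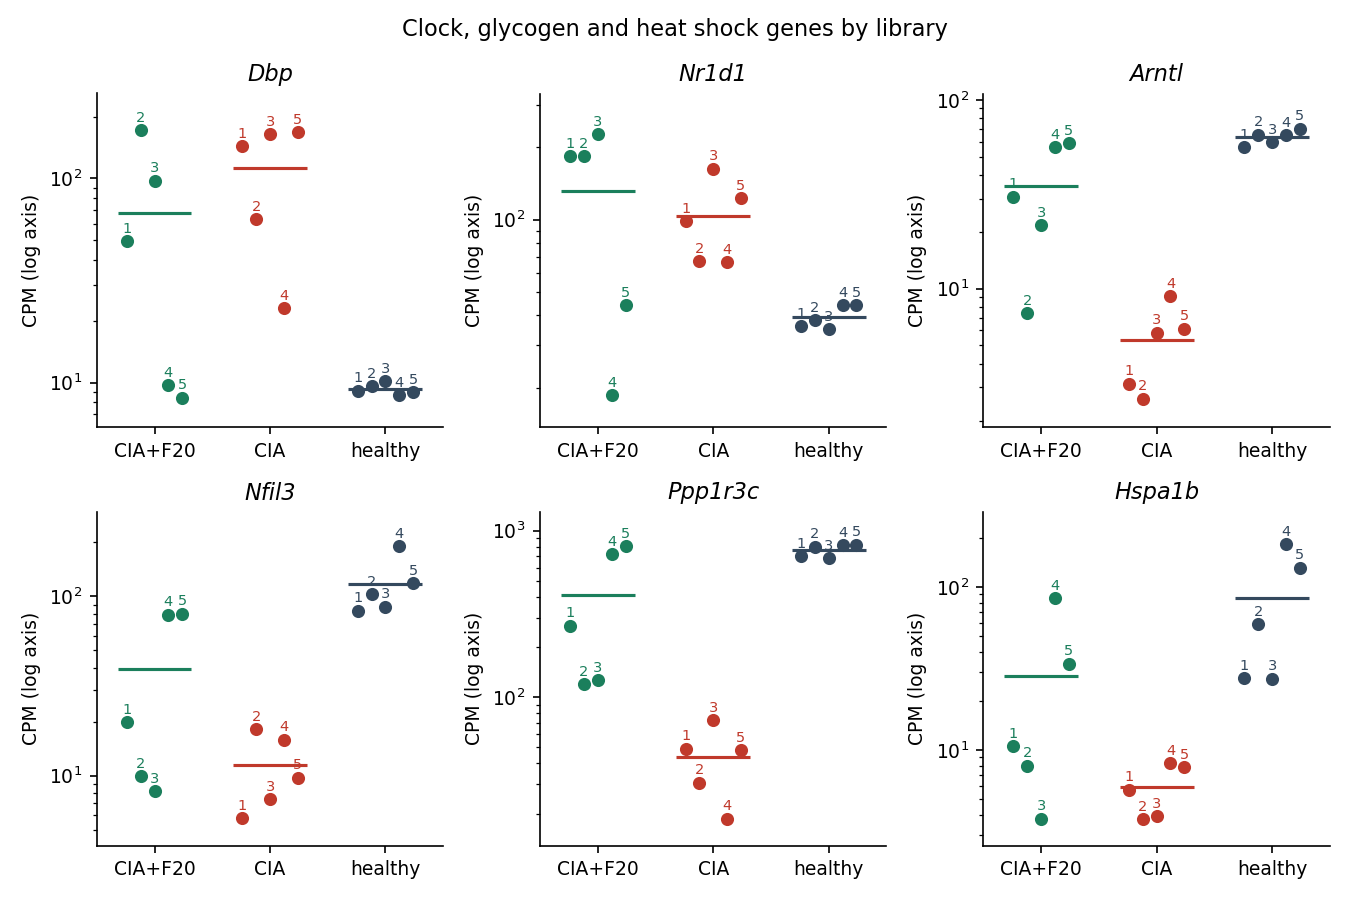
Level in CPM (log axis) of clock genes (Dbp, Nr1d1, Arntl, Nfil3), a glycogen gene (Ppp1r3c) and a heat shock gene (Hspa1b) in every library of the CIA+F20 (green), CIA (red) and healthy (dark blue) groups, with replicate numbers and the group mean as a line. In Dbp, Arntl, Nfil3, Ppp1r3c and Hspa1b, CIA+F20 1 to 3 lie apart from CIA+F20 4 and 5 and outside the healthy range; in Nr1d1, CIA+F20 1 to 3 lie above all healthy libraries and CIA+F20 4 lies below them.

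The E-box CACGTG, the site of the Arntl complex, is shown in capitals in the same 250-base window of 2 clock genes that differed among the treated libraries in opposite directions. Ciart, a repressor of the loop, had 2.63, 21.5, 3.89, 1.52 and 2.22 CPM in CIA+F20 and 1.02 to 2.83 CPM in healthy, so that CIA+F20 2 and 3 lay above healthy and the others within its range. Cry1, another repressor, had 16, 15.2, 14.2, 41.6 and 39.2 CPM in CIA+F20 and 38.9 to 49.4 CPM in healthy.
Ciart (chr3:95789541-95789790, minus strand): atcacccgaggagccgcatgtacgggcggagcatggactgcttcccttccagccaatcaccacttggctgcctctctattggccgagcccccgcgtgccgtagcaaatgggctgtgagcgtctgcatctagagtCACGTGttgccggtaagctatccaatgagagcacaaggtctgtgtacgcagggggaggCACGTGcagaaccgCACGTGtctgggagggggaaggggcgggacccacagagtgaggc
Cry1 (chr10:85020919-85021168, minus strand): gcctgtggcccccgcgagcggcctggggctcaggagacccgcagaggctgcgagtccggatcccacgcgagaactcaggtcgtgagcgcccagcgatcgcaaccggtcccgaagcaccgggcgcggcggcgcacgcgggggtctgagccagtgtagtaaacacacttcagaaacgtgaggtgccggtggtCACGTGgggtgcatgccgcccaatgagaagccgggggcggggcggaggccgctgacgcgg
The E-box, which reads the same on both strands, was found in 5 of 15 clock genes with a promoter in the table and in 1104 of 11534 tested genes (9.57%).

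Lists of drug and stress responses were read as well. The xenobiotic list had a median log2 fold change of 0.15 with 0 of 9 called by either tool, and Cyp1a1, the oxidase induced through the aryl hydrocarbon receptor, had 0.283 to 0.99 CPM in CIA+F20 and 0.34 to 0.695 CPM in healthy. Of 12 NRF2 targets 9 were positive (median 0.13), and DESeq2 called 3 (Hmox1, Gclm and G6pdx), against 3.06% of all genes, while edgeR called 0. One of these was Hmox1, which degrades haem, with 22.7, 13.7, 11.5, 10.9 and 11.8 CPM in CIA+F20, 14.3 to 238 CPM in CIA and 7.26 to 11.1 CPM in healthy. Fkbp5, a target of the glucocorticoid receptor, was the 1 of 12 tested members of the glucocorticoid list that DESeq2 called (1.25% of all genes were called lower). It had 28, 33.8, 41.1, 60.9 and 46.5 CPM in CIA+F20 and 56.7 to 82.4 CPM in healthy (log2 -0.63 ± 0.19, edgeR adjusted p 0.171, DESeq2 0.0417). Of all 55 lists, 30 had a median within 0.2 of 0 on the log2 scale, 8 had every tested member positive and 3 had every tested member negative.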

How the data were processed

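Reads were trimmed with fastp 0.23.2, aligned with HISAT2 2.2.1 to GRCm39 and counted with featureCounts 2.0.3, per the submitters' processing notes; annotation release and strand setting: not given in the sources used here, so antisense partners cannot be separated. The authors deposited raw read counts per gene for 15 libraries. Of 26688 genes, 15280 passed edgeR's filterByExpr (minimum count 10) and 11408 did not; 15 symbols are shared by more than 1 gene. CIA+F20 was tested against healthy with edgeR 4.0.16 in R 4.3.3 (TMM scaling, quasi-likelihood test, group as the only term) with Benjamini-Hochberg adjustment at 0.05; SE is the log2 fold change divided by the root of F, and the estimated biological variation between libraries was 20.4%. CIA over healthy came from a fit of all 3 groups. DESeq2 1.42.0 and limma 3.58.1 (voom with sample weights) were alternatives (the submitters name DESeq2 for their own comparison), with other scalings, filters, covariates and left-out libraries. The edgeR step was tested on simulated counts. Members and gene lists were chosen with earlier results of these data known. Named genes were called genes by size, p and list, plus 10 always named; as no gene was called, each list gave its member of lowest p, and the rule named 63 genes. The other 108 genes with values were chosen after their values were seen, among them Xaf1, the MHC class I genes, Sox7, Klhl31, Ndufs5 and Ppp1r3c. No 2 libraries agreed within sampling noise. Il17a is not analysed here.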

Additional observations from a re-analysis of the deposited data

Results flagged for a closer look

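Mean log2 CPM (0.5 CPM added) over each list was compared within each group of 5, and a library is given where its gap to the nearest other library exceeded 0.71 of the group's range, the Dixon limit. This held in 7 of 110 groups, where chance at 1 in 20 gives 5.5. In CIA+F20 1 the STAT3 and acute phase list stood at 4.76, with 3.65 to 3.91 in the other treated libraries, and the muscle regeneration and developmental myosin list at 3.87, with 3.5 to 3.56. In healthy 3 the mature neutrophil list stood at 2.95, with 0.72 to 1.12 in the other healthy libraries, and the B and plasma cell list at 1.74, with 0.54 to 0.86. In healthy 4 the endothelial list stood at 4.99 (others 4.29 to 4.42), the muscle atrophy list at 6.59 (6.29 to 6.36) and the tendon list at 3.51 (4.73 to 5.14).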

How the results depend on the processing

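EdgeR called 0 genes under RLE or upper-quartile scaling, no filter or a stricter one, 3 groups fitted together, mitochondrial transcripts left out, and fast muscle, erythroid or Dbp covariates, and limma called 0. The replicate block also gave 0 calls (lowest adjusted p 0.13, 2221 genes at an unadjusted p under 0.05). Deviations of same-numbered libraries correlated at -0.215 to 0.01, which gave no sign that the numbers pair them. So few values cannot decide whether they do. DESeq2 called 448 genes higher and 183 lower (275 and 7 at least 2-fold). With both healthy 3 and healthy 4 left out edgeR called 620 and 47 (555 and 5), and Lck, a T cell kinase high in healthy 4, reversed to a log2 fold change of 3.02 (adjusted p 0.0193). DESeq2 without healthy 3, chosen after seeing the data, called 765 and 275 (552 and 8). Leaving out 1 library at a time gave 0 to 398 genes higher, 0 to 30 lower, 0 to 354 at least 2-fold higher and 0 to 2 at least 2-fold lower. The highest of each came without healthy 3; without healthy 5 there were 2 higher, and without CIA+F20 4 there were 2, of which 1 at least 2-fold. Genes without overlap, a count chosen after seeing the data, numbered 797 higher and 354 lower without healthy 3. Why calls differ between these settings was not tested. Healthy levels under about 1 CPM rest on few reads.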
